A study of Mus musculus with 16 samples.

Results

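Submandibular glands of unirradiated mice taken at ZT9 were compared with glands taken at ZT3 (zeitgeber time, the hours since lights on), with 2 RNA libraries on each side. These 4 libraries are among the 10 RNA libraries and 16 samples of the series, and were chosen by their labelled time and by the absence of treatment. Both groups were wild-type mice aged 6 to 8 weeks, with no irradiation and no other agent named in the labels, which give neither strain nor sex. The other RNA libraries, also from wild-type glands, were 2 from unirradiated glands at ZT15 and 2 each from glands 6 h and 24 h after 5 Gy, and they served mainly to estimate the spread between libraries. Nothing in the labels says that the replicates of a group came from separate animals, so the p-values measure only the spread between these samples. The title of the series names the circadian clock and the loss of salivary function after radiotherapy. The present comparison sets afternoon against morning glands before any radiation is given, and the groups also differ completely in Y-linked and Xist RNA, as described below. Of 55181 genes listed in every file, 15161 had an FPKM (fragments per kilobase of transcript, scaled to the mapped fragments of the library) of at least 1 in at least 2 of the 10 RNA libraries and were tested.

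In nearly every mammalian cell the clock is a feedback loop of transcription. Arntl (also called Bmal1) pairs with Clock or Npas2 and binds E-box elements to switch on the Per and Cry genes, whose proteins then block that pair, while Nr1d1 and Nr1d2 (REV-ERB proteins, induced by the same pair) repress Arntl through a response element that the ROR proteins use to activate it. The PAR bZIP factors Dbp, Tef and Hlf pass the rhythm on to other genes through D-box elements. In salivary glands the clock is known to run locally and to accompany daily changes in saliva.

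Before any result, 3 features of the libraries need stating. Y-linked RNA (the mean FPKM of Ddx3y, Kdm5d, Eif2s3y and Uty) stood at 19.3 and 18.7 at ZT3 and all 4 genes were listed at 0 in both ZT9 libraries. The opposite held for Xist, made from the inactive X, with 26.0 and 24.9 at ZT9 and 0.0307 and 0.0151 at ZT3. The files also came in 2 gene orders, 1 for the ZT3 and irradiated libraries and 1 for the ZT9 and ZT15 libraries. Time of day, Y-linked RNA and the gene order of the files therefore cannot be told apart between these groups. A second set of log2 changes is given from a fit with a term for Y-linked RNA. The ZT15, 6 h and 24 h groups allow this because each holds 1 library with Y-linked RNA and 1 with Xist. In fits of only the 6 unirradiated libraries the term rests almost wholly on the 2 ZT15 libraries. It then carries any other difference between those 2 libraries too. Thirdly, products typical of the neighbouring glands differed between libraries of 1 group: Amy1, an amylase of the parotid gland, was 26.4 and 4167 at ZT3 and 12.8 and 1108 at ZT9, and Muc19, a mucin typical of the sublingual gland, was 964, 870 and 2863 but 0.274 in ZT9 replicate 2. The submandibular label was borne out by its own products in all 4 libraries, with Scgb1b27, a secretoglobin, taking 17.4% and 12.5% of the summed FPKM at ZT3 and 24.6% in each ZT9 library, and with the salivary protein gene Prol1 at 27078, 26064, 56742 and 42681. Total FPKM was 917713 and 936830 at ZT3 and 1174465 and 927187 at ZT9. The depth in reads is unknown, and the relative depth read from the FPKM steps was lowest in ZT9 replicate 1, at 0.690 of ZT3 replicate 1.

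Promoters of 4 core clock genes and of the clock output gene Tspan4, all described below, are shown here and were picked because a match to a clock response element lies in them. Of the 13 core clock genes with a promoter in the table, 4 held the E-box, 1 the D-box and 1 the REV-ERB and ROR core. The sequences are RefSeq promoter windows on GRCm38.p6, the patch level of the mm10 build, running from 250 bases before the annotated start for all but Arntl, whose element lies past the start and is shown in a 27-base window. Capitals mark the element. The elements searched on both strands were the E-box CACGTG, the D-box TTATGTAA or TTACGTAA, and the core of the REV-ERB and ROR element, TAGGTCA, and none of the matches shown overlap each other.
Arntl, chr7:113207531-113207557, plus strand, REV-ERB and ROR core 30 bases past the start: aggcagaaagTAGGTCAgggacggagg
Per1, chr11:69098699-69098948, plus strand, E-box at -166: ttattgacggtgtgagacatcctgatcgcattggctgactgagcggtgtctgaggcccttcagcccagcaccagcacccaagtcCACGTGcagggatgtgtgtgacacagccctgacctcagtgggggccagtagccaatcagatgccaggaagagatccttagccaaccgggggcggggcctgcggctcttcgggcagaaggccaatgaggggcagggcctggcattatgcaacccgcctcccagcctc
Per3, chr4:151044666-151044915, minus strand, D-boxes at -205 and -158: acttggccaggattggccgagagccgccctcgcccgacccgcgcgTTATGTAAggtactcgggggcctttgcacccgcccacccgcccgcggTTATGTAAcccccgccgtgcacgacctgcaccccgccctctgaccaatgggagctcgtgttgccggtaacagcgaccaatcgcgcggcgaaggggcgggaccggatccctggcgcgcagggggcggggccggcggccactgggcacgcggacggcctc
Ciart, chr3:95882229-95882478, minus strand, E-boxes at -116, -58 and -44: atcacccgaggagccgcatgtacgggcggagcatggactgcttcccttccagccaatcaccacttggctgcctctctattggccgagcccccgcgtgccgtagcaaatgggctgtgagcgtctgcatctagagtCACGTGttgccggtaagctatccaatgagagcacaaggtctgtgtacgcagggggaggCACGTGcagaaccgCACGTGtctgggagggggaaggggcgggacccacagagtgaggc
Tspan4, chr7:141476130-141476379, plus strand, E-box at -51: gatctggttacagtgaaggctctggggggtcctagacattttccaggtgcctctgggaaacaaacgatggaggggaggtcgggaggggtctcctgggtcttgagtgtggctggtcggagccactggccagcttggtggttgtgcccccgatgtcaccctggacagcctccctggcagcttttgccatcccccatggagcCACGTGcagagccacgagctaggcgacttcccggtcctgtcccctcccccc

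Among all 32851 RefSeq promoters of the same length, 7.15% held the E-box, 1.06% the D-box and 2.61% the REV-ERB and ROR core. Counted by gene, as for the 13 core clock genes, the shares were 11.5%, 0.854% and 2.47% of the 10657 tested genes with a promoter. For Bmal1, Nr1d1 and Dbp, 2 lists each of 1-base summits came from CUT&Tag, a method that cuts chromatin where an antibody sits, with no control sample among the samples analysed here. Nearest summits to the Per1 start lay at -182 and -155 for Bmal1, -100 and -167 for Nr1d1 and -169 and -153 for Dbp, close to the E-box at -166. At Per3, whose D-boxes start at -205 and -158, the Dbp summits lay at -224 and -213 and the Bmal1 summits at -224 and -128. Summits of all 3 proteins also fell within 1000 bases of the Ciart, Dbp and Arntl starts in both lists. Summits within 1000 bases in both lists were present for Bmal1 at 9 of the 13 core clock genes that have a promoter in the table, for Nr1d1 at 6 and for Dbp at 8, where 24.1%, 10.9% and 24.5% of the 10657 tested genes with a promoter had them. These matches and summits are descriptions, and the time of day of the CUT&Tag glands is not in the labels.

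The activators of the clock were low at ZT9 and its repressors and output factors high, in both replicates for most of them, while none of these genes passed the adjusted threshold on its own. Only 1 gene of 15161 was called at an adjusted p under 0.05 (0.00660%), a higher one, and 2427 genes (16.0%) had an unadjusted p under 0.05, of which 1131 (7.46%) were higher and 1296 (8.55%) lower at ZT9. Libraries did not overlap for 3434 genes that were higher (22.7%) and 3676 that were lower (24.2%), 7110 in all (46.9%), and 48.6% of all genes had a log2 change above 0, with a median of -0.02. Counts of gene lists below are read against those shares. The lists were chosen with earlier results of these data known, so their shares are descriptions only. Of the 17 core clock genes tested, out of 18 listed, 11 were higher and 6 lower at ZT9, none was called, 10 were higher without overlap and 4 lower without overlap, and their median log2 change was 0.75 (0.49 with the Y-linked term and 0.46 without ZT3 replicate 2). Unadjusted p was under 0.05 for 10 of the higher and 3 of the lower ones.

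Arntl, the activator without which the loop stops, had an FPKM of 9.41 and 15.6 in the ZT3 libraries and 0.803 and 0.855 in the ZT9 libraries. Both ZT9 libraries lay far below both ZT3 libraries, at a mean 15.1-fold lower, and the ZT15 values of 3.44 and 2.59 lay between them. The log2 change on the log2(FPKM + 1) scale was -2.84 (SE 0.29, limma adjusted p = 0.0536), and -2.78 with the Y-linked term. Npas2, a partner of Arntl, went from 5.20 and 11.3 at ZT3 to 0.299 and 0.573 at ZT9 and stayed at 0.487 and 0.206 at ZT15 (log2 change -2.61, SE 0.34, adjusted p = 0.0959). Clock, the other partner, differed less, with 8.00 and 8.13 at ZT3 against 1.88 and 3.02 at ZT9 (log2 change -1.41, SE 0.24, adjusted p = 0.111), and was 5.42 and 5.68 at ZT15. The 3 activators thus had their lower values at ZT9 in each library, and their fold differences ran in the order Npas2, Arntl, Clock.

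The repressors of the activator pair were higher at ZT9 in both libraries. Per3, whose D-boxes are printed above, was 4.05 and 1.60 at ZT3 and 29.5 and 20.5 at ZT9, a mean 8.86-fold higher (log2 change 2.82, SE 0.38, adjusted p = 0.0959). Per2 was 0.472 and 0.369 at ZT3, 4.72 and 8.89 at ZT9 and 10.5 and 12.6 at ZT15 (log2 change 2.41, SE 0.33, adjusted p = 0.0977), so its level at ZT9 lay below that at ZT15. Per1, which carries the E-box at -166, was 6.60 and 6.92 at ZT3, 24.7 and 21.2 at ZT9 and 18.3 and 15.3 at ZT15 (log2 change 1.62, SE 0.32, adjusted p = 0.122). Of the cryptochromes, which act with the Period proteins, Cry2 was 4.30 and 2.63 at ZT3 and 9.89 and 11.5 at ZT9 (log2 change 1.41, SE 0.29, adjusted p = 0.122), and Cry1 was 1.87 and 2.73 against 3.48 and 5.73 (log2 change 0.75, SE 0.28, adjusted p = 0.265, and 0.39 with the Y-linked term) before reaching 11.6 and 9.22 at ZT15. Ciart, a repressor with 3 E-boxes in its promoter window, was 0.434 and 0.268 at ZT3 and 14.6 and 5.91 at ZT9, and 0.900 and 2.09 at ZT15 (log2 change 2.94, SE 0.59, adjusted p = 0.122). Its ZT9 libraries stood above all 4 other unirradiated libraries but differed from each other by more than either group of the other times did in FPKM.

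Nr1d1, which represses Arntl, was 27.1 and 12.9 at ZT3, 67.8 and 51.5 at ZT9 and 3.47 and 9.11 at ZT15 (ZT9 against ZT3, log2 change 1.60, SE 0.48, adjusted p = 0.193). Its related gene Nr1d2 had a shallower profile of 36.7 and 22.8, 47.3 and 55.0, and 30.7 and 40.2 (log2 change 0.79, SE 0.26, adjusted p = 0.213). Rora, an activator that competes with them, differed little, with 3.82 and 4.04 at ZT3 against 2.86 and 3.45 at ZT9 (log2 change -0.25, adjusted p = 0.633, and -0.59 with the Y-linked term). The bHLH repressors Bhlhe40 (30.6 and 18.8 against 42.5 and 33.5) and Bhlhe41 (3.52 and 1.49 against 7.94 and 5.48) were higher without overlap, with adjusted p = 0.288 and 0.169. The casein kinases Csnk1d and Csnk1e, which phosphorylate Period proteins, had overlapping libraries and log2 changes of -0.28 and -0.13, the latter reversed without ZT3 replicate 1 or ZT9 replicate 1.

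Dbp had the widest difference of the clock genes on the log2 scale. Its FPKM was 8.55 and 3.88 at ZT3, 281 and 115 at ZT9 and 12.5 and 28.1 at ZT15. The lower ZT9 library exceeded the higher ZT3 library by far, and the log2 change was 4.73 (SE 0.68, adjusted p = 0.102), a mean 31.9-fold difference. Tef, a relative of Dbp, was 29.4 and 16.0 against 72.3 and 105 (log2 change 1.96, SE 0.35, adjusted p = 0.116), and Hlf, scarce in this gland, was 0.572 and 0.243 against 1.25 and 2.63 (log2 change 1.03, SE 0.30, adjusted p = 0.182). Nfil3, which binds the same D-boxes as a repressor, was 7.83 and 11.6 against 7.44 and 6.77, lower without overlap but with a small log2 change of -0.38 (SE 0.41, adjusted p = 0.675), and was 29.5 and 10.7 at ZT15. With the Y-linked term the log2 change of Dbp was 4.43 and those of Tef and Hlf 1.73 and 0.93.

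**Figure D1:**
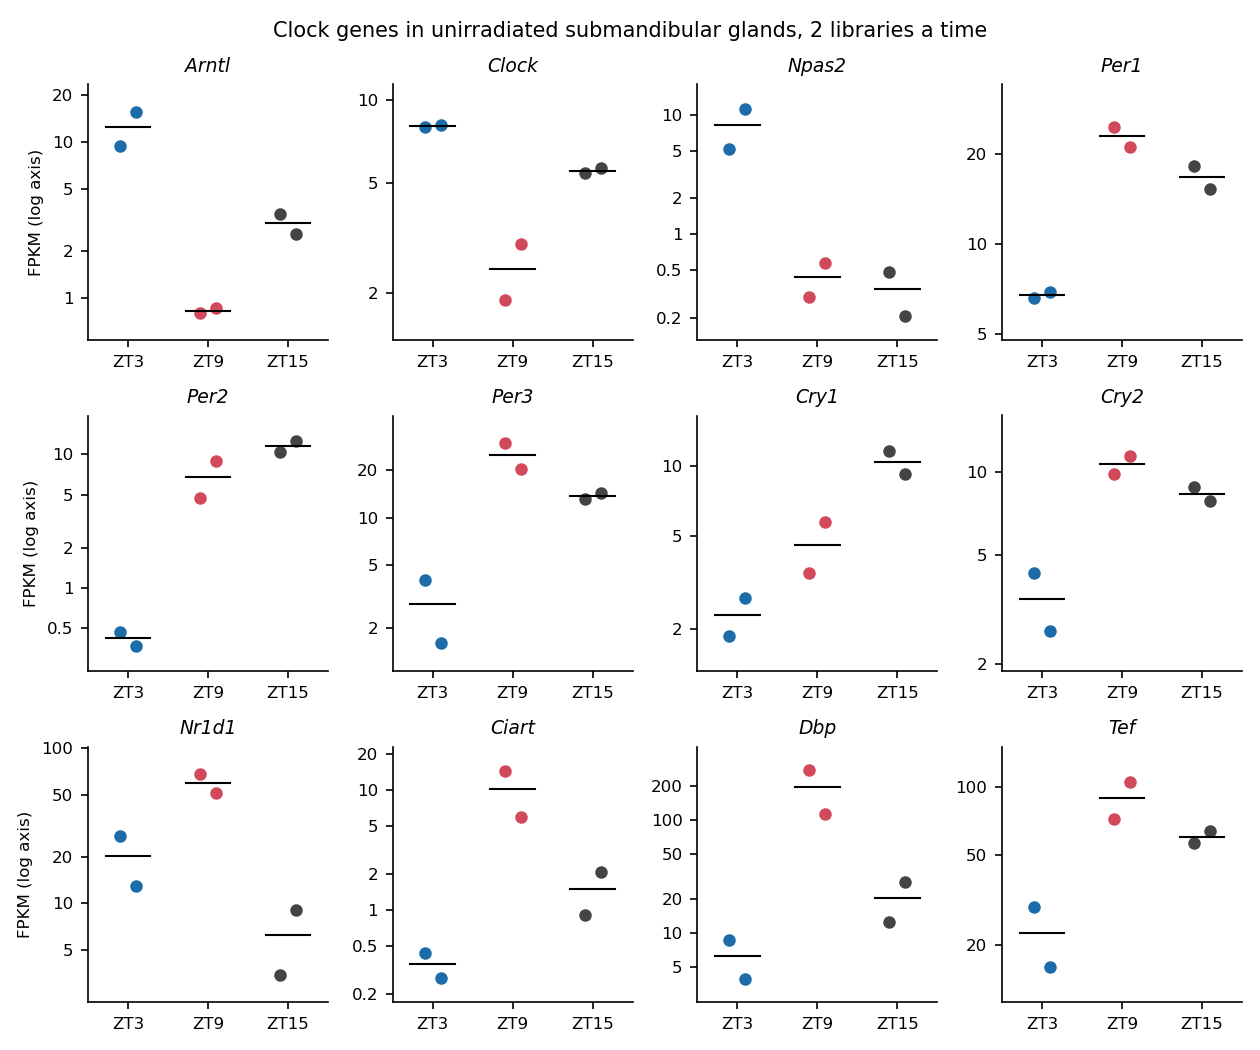
FPKM of 12 clock genes in the unirradiated libraries at ZT3, ZT9 and ZT15, on a log axis with its own range in each panel; each point is a library and the bar is the mean of 2. Arntl, Clock and Npas2 have both ZT9 libraries below both ZT3 libraries, and the other 9 genes have both above.

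Of the 20 genes of these lists reported singly, 19 kept their direction under every setting run, and the exception was Csnk1e. The calls depended on which other libraries set the spread. Without either of the 24 h libraries, 5 clock genes passed the adjusted threshold, namely Arntl (adjusted p = 0.0353), Dbp, Per1, Per2 and Per3. Both of these fits drop the same within-group difference, so they are not separate checks. A fit of the 4 compared libraries alone called none of the genes of these lists.

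The 22 genes listed as clock output, which includes Ciart, had 17 higher and 5 lower, a median log2 change of 0.41, and 11 higher without overlap. The median was 0.18 with the Y-linked term, with 14 higher, and 0.20 without ZT9 replicate 2, with 12 higher. Usp2, a ubiquitin protease that is a known rhythmic target of the clock, was 7.83 and 5.89 at ZT3 and 34.7 and 28.6 at ZT9 (log2 change 2.06, SE 0.28, adjusted p = 0.0977). Tspan4, a tetraspanin whose promoter with its E-box is printed above, was 7.24 and 7.75 at ZT3, 29.2 and 26.7 at ZT9 and 20.7 and 25.4 at ZT15 (log2 change 1.77, SE 0.24, adjusted p = 0.0977). In each of the 2 genes the replicates lay close together and the groups far apart. Wee1, a kinase that holds back mitosis and a target of the activator pair, was 4.45 and 3.26 against 12.2 and 10.1 (log2 change 1.33, adjusted p = 0.111), and Coq10b was 7.92 and 8.66 against 18.4 and 21.7 (log2 change 1.17, adjusted p = 0.122), both chosen after their values were seen. Cpt1a, which carries fatty acids into mitochondria, was 30.6 and 30.9 against 45.3 and 57.1. Por, the electron donor of the cytochromes P450, was 30.2 and 30.7 against 28.4 and 40.2, with overlap, and Tfrc, the transferrin receptor, 31.0 and 46.2 against 11.9 and 29.6.

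The 10 genes with the smallest p that met the naming conditions (no overlap, a group mean of 5 FPKM or more at one of the times, no predicted or clone-named gene) were Slc7a5, Arntl, Glrx, Tanc2, Thbs1, Npas2, Mid1ip1, Per3, Usp2 and Tspan4, so 3 are core clock genes and 2 are listed clock output genes. Their adjusted p ran from 0.0536 to 0.0977, and in all, 19 genes had an adjusted p under 0.1, of which 7 were higher and 12 lower. Slc7a5, the transporter that brings leucine and other large neutral amino acids into cells, was 12.9 and 15.1 at ZT3, 72.2 and 51.8 at ZT9 and 30.3 and 30.2 at ZT15 (log2 change 2.06, SE 0.20). Glrx, a glutaredoxin that reduces protein disulfides with glutathione, was 15.5 and 17.6 at ZT3 and 2.81 and 3.34 at ZT9 (log2 change -2.11, SE 0.25, adjusted p = 0.0758). Thbs1, a secreted matrix protein that activates TGF-beta, was 25.5 and 23.5 against 3.83 and 2.52 (log2 change -2.63, SE 0.33, adjusted p = 0.0817). With the Y-linked term the log2 change of Thbs1 was -2.05. In each other group its library with Y-linked RNA was the higher. The values were 6.79 against 4.84 at ZT15, 10.1 against 6.85 at 6 h and 12.6 against 6.38 at 24 h. Tanc2, a scaffold protein, was 6.64 and 6.03 against 1.08 and 1.36, and Mid1ip1, which promotes fatty acid synthesis, was 7.91 and 8.48 against 20.7 and 18.5. In these 5 genes the ZT15 mean lay between the ZT3 and ZT9 means.

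The gene called was the predicted gene Gm19810 (chromosome 10, 79888667 to 79889014, on GRCm38.p6), which falls outside the naming rule and is named as the lone call. It rose, being listed at 0 in both ZT3 libraries and at 8.69 and 6.69 at ZT9 (log2 change 3.11 on the log2(FPKM + 1) scale, adjusted p = 0.0429, and 0.200 with the Y-linked term). It was also listed at 0 in all 4 irradiated libraries and at 12.1 and 19.5 at ZT15, so its split is that of the 2 gene orders of the files, which were 6 libraries and 4 libraries. Gm19810 was the 1 gene with that pattern, and Rps19-ps1, a pseudogene, was the 1 with the opposite pattern (2.69 and 3.27 at ZT3, 0 at ZT9 and ZT15). Against a group listed at 0 no fold is given.

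Genes of amino acid supply that the transcription factor Atf4 is known to activate were higher at ZT9. Of the 18 integrated stress response genes tested, out of 20 listed, 16 were higher and 2 lower, none was called, 15 were higher without overlap (83.3%, against 22.7% of all genes), and the median log2 change was 1.04. Asns, asparagine synthetase, was 124 and 138 at ZT3, 392 and 219 at ZT9 and 212 and 196 at ZT15 (log2 change 1.16, adjusted p = 0.166). Atf4 itself was 76.3 and 69.6 against 150 and 92.1 (log2 change 0.68, adjusted p = 0.209). The serine synthesis enzymes Phgdh (36.1 and 42.7 against 145 and 88.5, log2 change 1.50, adjusted p = 0.108) and Psat1 (7.45 and 12.4 against 70.5 and 35.2, log2 change 2.25, adjusted p = 0.122) had both ZT9 libraries above both ZT3 libraries. Trib3, a pseudokinase that feeds back on Atf4, was 1.34 and 0.662 against 29.8 and 2.56, a difference that rested mostly on 1 library. Phgdh, Psat1 and Trib3 were chosen after their values were seen. Nupr1, a stress-induced nuclear protein, was 1066 and 807 against 2075 and 341, and its direction turned with the Y-linked term and under 3 other settings.

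ZT9 replicate 1 stood above ZT9 replicate 2 for these genes, with a mean log2(FPKM + 1) over the list of 5.76 against 4.60, where the ZT3 libraries had 4.12 and 4.14 and the ZT15 libraries 4.41 and 4.71. Without ZT9 replicate 1 the median log2 change was 0.59, with 16 of 18 still higher, and without ZT9 replicate 2 it was 1.50. Related lists were less split. Of 17 amino acid transport and transamination genes, 14 were higher, 13 without overlap (76.5%), with a median of 0.88 and library means of 3.81 and 3.88 at ZT3 and 4.63 and 4.48 at ZT9. Slc3a2, the heavy chain that Slc7a5 needs at the membrane, was 57.3 and 68.7 against 216 and 125 (log2 change 1.37, adjusted p = 0.116), and the glutamine transporter Slc1a5 was 81.5 and 86.6 against 186 and 130 (log2 change 0.88, adjusted p = 0.139). Bcat2, which transfers the amino group of branched-chain amino acids, was 70.5 and 66.2 against 139 and 111. Of the 20 aminoacyl-tRNA synthetases, which charge tRNAs, 18 were higher and 16 without overlap (80.0%), with a median of 0.36, Sars at 64.4 and 67.3 against 147 and 99.9, Nars at 94.7 and 105 against 123 and 121, and Qars, lower without overlap, at 130 and 122 against 109 and 117. None of the genes of these 2 lists was called.

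Chaperones of the endoplasmic reticulum, which fold secretory proteins, went the other way. Of 25 genes, 20 were lower and 5 higher, 16 were lower without overlap (64.0%, against 24.2% of all genes), none was called, and the median log2 change was -0.59. Hspa5 (BiP), the main chaperone of that compartment, was 285 and 468 at ZT3, 197 and 253 at ZT9 and 315 and 398 at ZT15 (log2 change -0.71, adjusted p = 0.261). Pdia6 (166 and 245 against 89.7 and 89.8) and Hsp90b1 (344 and 476 against 173 and 187), chosen after their values were seen, had the lowest log2 changes of the list, both -1.16 (adjusted p = 0.116 and 0.135). Sec61b, a subunit of the translocon, and Herpud1, which takes part in degrading misfolded proteins, were higher at ZT9, Sec61b at 203 and 296 against 445 and 363 and Herpud1, likewise chosen after its values were seen, at 180 and 145 against 387 and 333. P4hb, a disulfide isomerase, was 506 and 497 against 502 and 640, with overlap. List means were 6.66 and 6.92 at ZT3, 6.22 and 6.47 at ZT9 and 6.74 and 6.90 at ZT15, so the ZT9 libraries were the 2 lowest of the 6, and the median was -0.40 without ZT9 replicate 1 and -0.36 with the Y-linked term in the 6 unirradiated libraries.

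**Figure D2:**
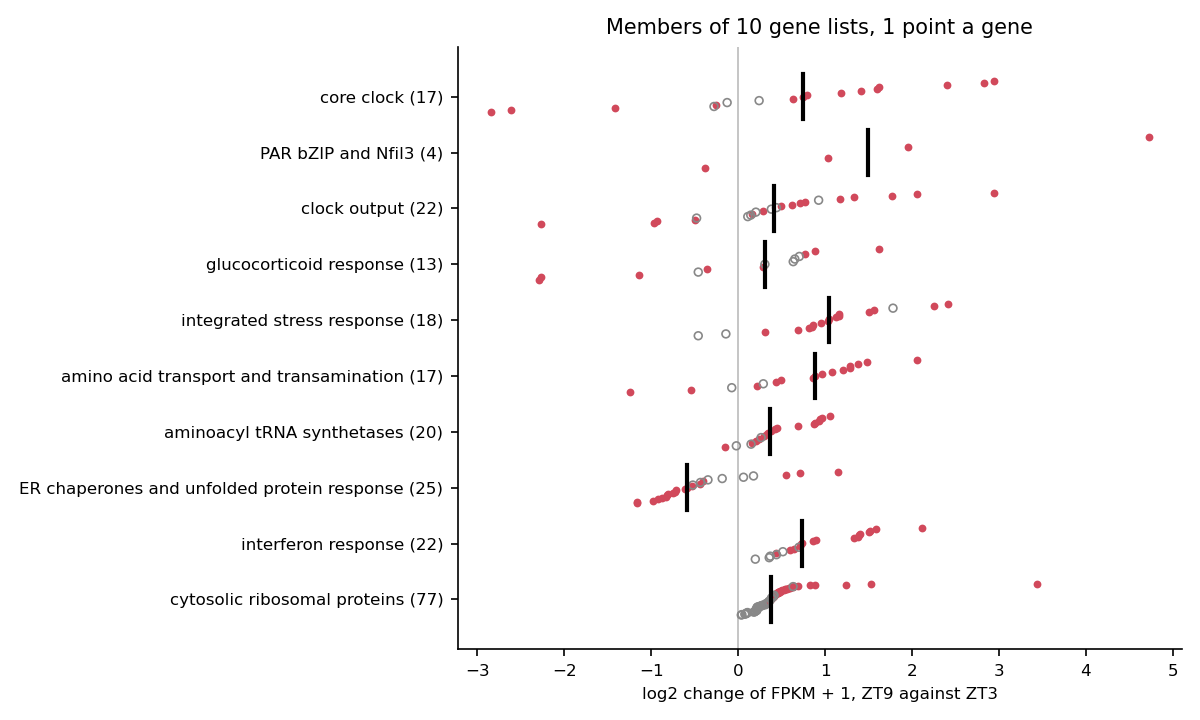
Log2 change at ZT9 against ZT3 for each tested member of 10 gene lists, with the number of members in brackets; filled points are genes whose ZT9 libraries lie on one side of both ZT3 libraries, open points are genes with overlap, and the bar is the median. Medians run from -0.59 for endoplasmic reticulum chaperones to 1.50 for the PAR bZIP genes with Nfil3.

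Interferon response genes, which restrain viruses, were higher at ZT9 in all 22 cases, 16 without overlap (72.7%), with none called and a median log2 change of 0.73. The antiviral membrane protein Bst2 was 21.2 and 35.5 at ZT3 and 70.8 and 36.2 at ZT9. Stat2, which carries the interferon signal, was 26.8 and 31.0 against 33.8 and 46.1. Xaf1, with the highest log2 change of the list (2.12, adjusted p = 0.166, picked with its values in view), was 3.57 and 5.87 against 31.3 and 17.3, and 18.9 and 12.4 at ZT15. List means were 2.59 and 3.12 at ZT3, 4.05 and 3.52 at ZT9 and 3.74 and 3.27 at ZT15. With the Y-linked term 20 of 22 were higher and the median was 0.65, with only the 6 unirradiated libraries in that fit it was 0.40, and without ZT3 replicate 2 and no such term it was 1.05.

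Cytosolic ribosomal protein genes were higher in all 77 cases, but this rested on 1 library. Their median log2 change was 0.37, with 41 higher without overlap (53.2%) and none called, and their library means were 8.61 and 8.67 at ZT3 and 9.37 and 8.78 at ZT9. Without ZT9 replicate 1, the library with the lowest relative depth and the largest total FPKM, 45 were higher and 32 lower and the median was 0.07. Rplp1, Rpl10 and Rps14 had the highest levels, and Rpl10 and Rps14 changed sign without ZT9 replicate 1. Rpl34, picked with its values in view, was 299 and 4.53 at ZT3 while its pseudogene Rpl34-ps1 was 12.3 and 251 in the same libraries, so reads of this pair may have been assigned differently in ZT3 replicate 2 and the values of both are uncertain.

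**Figure D3:**
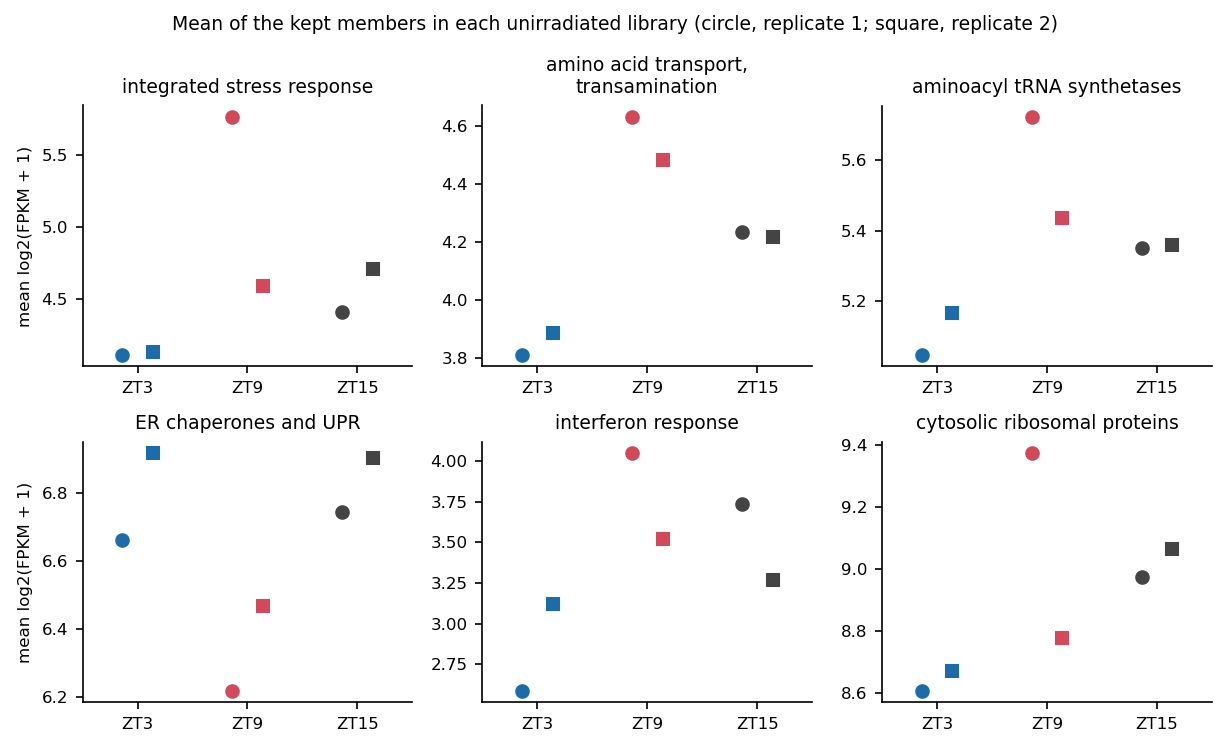
Mean log2(FPKM + 1) over the tested members of 6 gene lists in each unirradiated library, with replicate 1 as a circle and replicate 2 as a square. Amino acid transport genes are at 3.81 and 3.88 at ZT3 and 4.63 and 4.48 at ZT9, while ribosomal protein genes are high in ZT9 replicate 1 (9.37) and not in replicate 2 (8.78).

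Of 13 glucocorticoid response genes, 8 were higher and 5 lower, 4 in each direction without overlap, so as a list they were near the background, but single members differed widely. The median log2 change was 0.31, and -0.03 with the Y-linked term. Sgk1, a kinase that raises sodium uptake in epithelia, was 176 and 190 at ZT3, 35.1 and 38.2 at ZT9 and 43.6 and 71.3 at ZT15 (log2 change -2.29, adjusted p = 0.108). Fkbp5, a chaperone of the glucocorticoid receptor that the hormone induces, was 45.6 and 45.3 at ZT3, 8.45 and 8.91 at ZT9 and 23.2 and 37.5 at ZT15 (log2 change -2.26, adjusted p = 0.0980, chosen after its values were seen). Replicates of both genes lay within a narrow range at each of the 2 times. With the Y-linked term the log2 change of Sgk1 was -1.63. In each other group its library with Y-linked RNA was the higher, with 71.3 against 43.6 at ZT15, 44.8 against 42.1 at 6 h and 99.4 against 42.0 at 24 h. The metallothioneins Mt1 (141 and 87.7 against 235 and 141) and Mt2 (98.0 and 43.5 against 143 and 102), also induced by the hormone, were on the higher side, Mt1 with overlap.

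Genes of the granular convoluted tubule, the duct segment that in mice secretes kallikreins and growth factors and is known to be larger under androgens, had the widest differences of any list, and here Y-linked RNA moved with them. Of 20 genes, 18 were lower at ZT9, all 18 without overlap (90.0%), with a median log2 change of -6.59 and none called. Egf, epidermal growth factor, was 7722 and 11262 at ZT3 and 79.6 and 117 at ZT9 (log2 change -6.58, adjusted p = 0.174, chosen after its values were seen). Crisp3, a cysteine-rich secreted protein, was 18480 and 32711 against 371 and 643 (log2 change -5.65, adjusted p = 0.166), and the kallikrein Klk1b26 19195 and 23609 against 382 and 867 (log2 change -5.21, adjusted p = 0.166). The 13 genes named Klk1b in this list are close copies of each other, so reads may have been divided among them and their single values are uncertain. Tissue kallikrein Klk1, which releases kinins, had the opposite difference, 4180 and 2963 against 24004 and 31512 (log2 change 2.97, adjusted p = 0.126), and Nkd2 had overlapping libraries.

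Across all 10 libraries the mean log2(FPKM + 1) of these 20 genes was 11.1 and 11.8 at ZT3 and 5.48 and 6.37 at ZT9. Within the other groups the library with Y-linked RNA was the higher each time: 9.76 against 6.87 at ZT15, 9.51 against 6.28 at 6 h and 9.54 against 5.85 at 24 h. With the Y-linked term the median log2 change was -2.77, and with that term and the 6 unirradiated libraries -3.40, so the direction was kept and the size was smaller in both fits. Among genes with an unadjusted p under 0.05, the same term left all 2427 with the same direction. It brought 154 (6.35%) to less than 50% of their log2 change, and the median ratio of the changes with and without it was 0.838. These genes were picked by the fit without the term. The spread in that fit includes the difference between the Y-linked and Xist libraries of the ZT15, 6 h and 24 h groups. Genes that follow this difference are less likely to be picked. Xist and the Y-linked genes were not picked, while 17 of the 18 lower tubule genes were. The direction and these shares therefore cannot show how far the results depend on the split. With the term no gene passed, the smallest adjusted p being 0.200, and 1060 had an unadjusted p under 0.05.

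**Figure D4:**
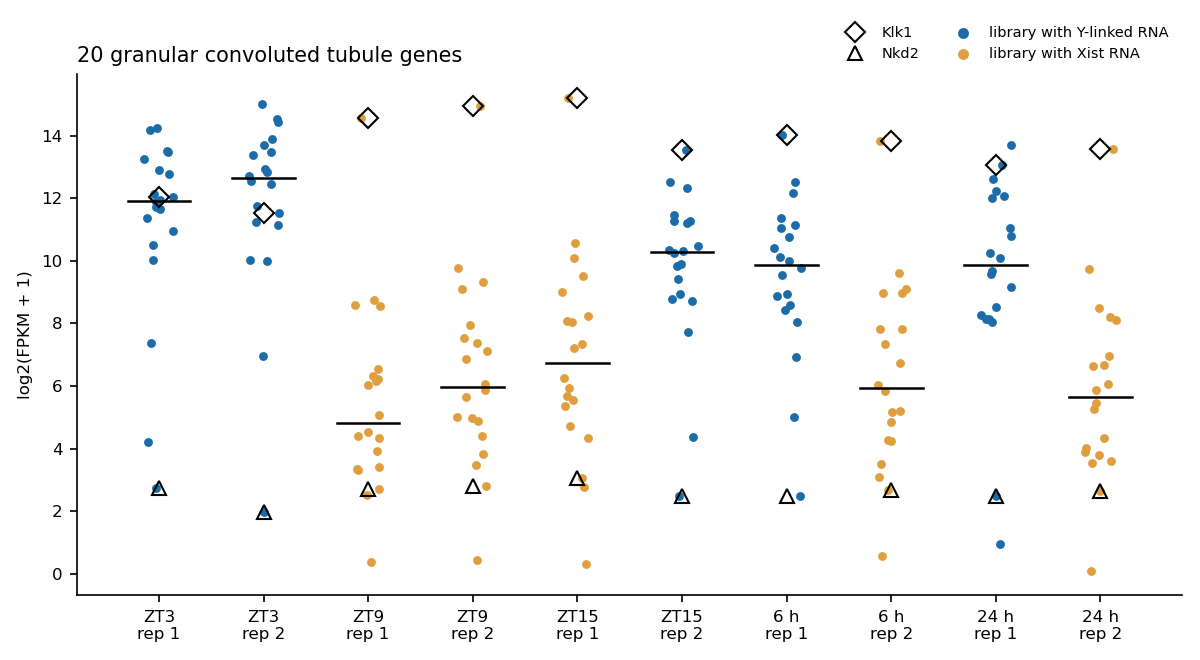
Log2(FPKM + 1) of 20 granular convoluted tubule genes in the 10 RNA libraries, coloured by whether the library holds Y-linked RNA or Xist RNA, with Klk1 as diamonds, Nkd2 as triangles and the bar at the median of the 20. ZT3, with Y-linked RNA in both libraries, lies above ZT9, with Xist in both, and each other group is split the same way.

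**Figure D5:**
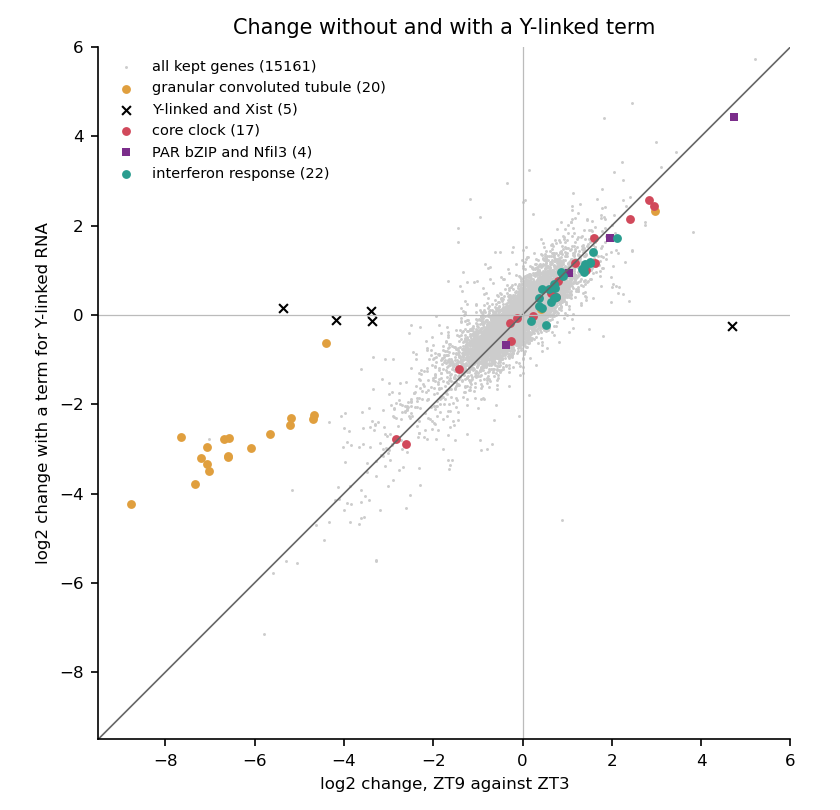
Log2 change at ZT9 against ZT3 from the fit without (x axis) and with (y axis) a term for Y-linked RNA, for the 15161 tested genes and 5 lists; the line marks equal values. Clock genes lie near the line (Arntl -2.84 and -2.78, Dbp 4.73 and 4.43), and granular convoluted tubule genes lie well off it (medians -6.59 and -2.77).

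Acinar secretory products went both ways. Of 23, 12 were higher and 11 lower, with a median of 0.15 and a range from -5.29 to 2.33. The median was -0.55 without ZT3 replicate 1 and 0.68 without ZT9 replicate 2. Without ZT9 replicate 1 the log2 changes of A2ml1, Dcpp2 and Dcpp3, picked with their values in view, were -11.8, -11.6 and -9.47. That of Muc19, the mucin typical of the sublingual gland, was -9.49 in the same fit. The sign of each of these genes turned without ZT9 replicate 2, so their falls rested on that library. Scgb1b27 was 159230 and 116810 at ZT3 and 288880 and 227700 at ZT9, Scgb2b27 110240 and 71697 against 165750 and 131230, and the prolactin-induced protein Pip 47000 and 45316 against 42875 and 42517. Of 22 fluid and ion secretion genes, 10 were higher and 12 lower, with a median of -0.09 (-0.23 with the Y-linked term and 0.01 without ZT9 replicate 1). The water channel Aqp5, through which saliva water leaves the acinar cell, was 242 and 204 against 541 and 335 (log2 change 0.94, adjusted p = 0.262, and 0.49 with the Y-linked term), and the sodium pump subunit Atp1b1 was 393 and 281 against 506 and 612. The 10 highest genes took 49.7% and 43.6% of the summed FPKM at ZT3 and 63.6% and 63.2% at ZT9. Because FPKM is scaled to the library, a higher level of abundant products can lower the values of the rest. The median log2 change over all tested genes was -0.02. Size factors by median-of-ratios scaling were 0.935 and 0.949 at ZT3 and 0.938 and 0.931 at ZT9. With these size factors the median log2 change was 0.77 for core clock, 1.055 for integrated stress response, -0.57 for endoplasmic reticulum chaperone and -6.58 for tubule genes. As reported, these medians were 0.75, 1.04, -0.59 and -6.59. Beyond such refits the part of scaling to the library in the results was not tested.

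Markers of other cells moved with single libraries. T cell markers were lower at ZT9 in 18 of 18 cases and B cell markers in 15 of 15, with none called, but the summed FPKM of the T cell list was 17.7 and 117 at ZT3 and 17.5 and 15.2 at ZT9, and that of the B cell list 9.99 and 177 against 12.6 and 11.1. ZT3 replicate 2 was the high library in each, and without it the medians were -0.09 and 0.04. Ighm, the IgM heavy chain, and Trbc2, a T cell receptor chain, turned positive without that library. Plasma cell markers were lower in 9 of 10 cases, with a summed FPKM of 3186 and 6698 at ZT3 and 2442 and 719 at ZT9, and Igkc, the kappa light chain, was 1463 and 3931 against 1091 and 206. Adipocyte markers were higher in 11 of 11 cases with summed values of 24.3 and 249 against 191 and 517, and their median of 1.58 was 0.30 with the Y-linked term and 0.41 without ZT3 replicate 1. Cidea, which is abundant in brown fat, was 0.214, 4.88 and 0.457 in the first 3 of these libraries and 58.9 in ZT9 replicate 2. With the Y-linked term in the 6 unirradiated libraries the lymphocyte and plasma cell lists turned: 18 of 18 T cell, 15 of 15 B cell and 9 of 10 plasma cell markers were higher, with medians of 1.73, 3.18 and 0.98. In bulk tissue, fewer cells of a type and less RNA per cell cannot be told apart, and the part of these cells in the results above was not tested.

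Of 12 myoepithelial and basal markers, 5 were higher and 7 lower, with the contractile genes Acta2 at 275 and 200 against 204 and 109, Tagln at 142 and 119 against 66.2 and 29.6 (log2 change -1.53, adjusted p = 0.139) and Cnn1 at 140 and 96.6 against 69.5 and 34.3. Proliferation genes were higher in 28 of 29 cases with a median of 0.52, 12 without overlap, and library means of 1.03 and 1.81 at ZT3 and 2.17 and 1.76 at ZT9, so the ZT9 libraries bracketed ZT3 replicate 2. The median was 1.31 with the Y-linked term, 2.49 with it in the 6 unirradiated libraries, and 0.17 with 20 of 29 higher without ZT3 replicate 1. The ZT15 library means, on which the term in the 6 libraries rests, were 3.49 with Y-linked RNA and 1.56 with Xist. Of 16 fibroblast and matrix genes, 13 were higher, 9 without overlap (56.3%), with Dcn at 186 and 191 against 241 and 218, Sparc at 46.6 and 51.4 against 87.7 and 90.8 and Postn, lower, at 111 and 85.4 against 34.4 and 27.1. Cholesterol synthesis was lower in 15 of 21 cases with a median of -0.32, where ZT3 replicate 2 was the high library, with a list mean of 4.13 against 3.25, 3.46 and 3.40 in the other 3. Without that library 14 of 21 were higher and the median was 0.15, and with the Y-linked term 18 were lower and it was -0.62. For p53 targets, which respond to DNA damage, 11 were higher and 13 lower with a median of -0.14. Gadd45a, a stress-induced gene of that list, was 60.8 and 103 at ZT3 and 9.70 and 8.52 at ZT9 (log2 change -2.99, adjusted p = 0.126, and -1.78 with the Y-linked term). In each other group its library with Y-linked RNA was the higher, with 21.1 against 7.0 at ZT15, 11.2 against 6.00 at 6 h and 36.1 against 11.9 at 24 h. Heat shock genes had a median of 0.20 (0.04 without ZT9 replicate 2) and mitochondrial transcripts 0.42 (0.21 with the Y-linked term). The medians of 0.01 for DNA repair and 0.07 for proteasome genes were -0.12 and -0.14 without ZT9 replicate 1, and none of these lists held a called gene.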

How the data were processed

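RNA was measured in 10 libraries, 5 groups of 2, grouped by the labels. The authors deposited FPKM per gene, per the labels' protocols; per the submitters' processing notes the tools were HISAT2, SAMtools, Cufflinks and Bowtie2 and the build mm10. Tool versions and the annotation: not given in the sources used here. The deposited CUT&Tag lists hold 1-base summits with a score whose scale is not stated; the score was not used. Each expression file held 55398 entries; 217 entries with a repeated symbol (107 symbols) were dropped, 55181 genes joined and 15161 kept (2 or more libraries with an FPKM of 1 or above). Log2(FPKM + 1), a pseudocount of 1, was fitted with limma 3.58.1 in R 4.3.3 (1 mean per group, all 10 libraries, mean-dependent prior), with two-sided tests of ZT9 minus ZT3 adjusted by Benjamini-Hochberg over the kept genes and called under 0.05. An exact permutation test of 2 against 2 cannot go below p = 0.333. A log2 change on this scale understates the change of low genes. FPKM hold no counts, so depth is unknown and no counting interval is given. On simulated data the fit recovered 74% of log2 changes of 1, 80% of -1 and 100% of 2 and -2, with 10 false calls. That simulation used independent noise and no split by Y-linked RNA, so it says nothing about that split in these libraries. It also gave genes of a like level the same spread and placed changes only in genes of higher level. Its recovery therefore does not carry over to these libraries, where Arntl (log2 change -2.84) and Dbp (4.73) were not called.

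The comparison, its members, the 42 gene lists and the lists' symbols were chosen with earlier results of these data known. Named genes were all kept core clock, PAR bZIP, Y-linked and Xist genes, the 10 with the smallest p (no overlap, a group mean of 5 FPKM or more, no predicted or clone-named genes) since fewer than 10 were called, called members of lists, the 3 members of each list with the highest mean FPKM, and Amy1, Muc19 and Prol1; others are said to be chosen after their values were seen. The Y-linked term is the mean log2(FPKM + 1) of 4 Y-linked genes. Promoters came from RefSeq GRCm38.p6 (27025 genes). Tables and figures used Python 3.11.15, numpy 2.4.6, pandas 2.3.3 and matplotlib 3.10.9. Some genes are not reported here by name and stay in the counts and medians of their lists.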

Additional observations from a re-analysis of the deposited data

How the results depend on the processing

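The count of called genes moved under most settings. Higher and lower calls, 1 and 0 as reported, were 2 and 15 with the 4 compared libraries alone, 2 and 2 with median-of-ratios scaling, 3 and 5 with a pseudocount of 0.1, 6 and 11 with no filter beyond FPKM above 0, 2 and 5 without the trend, 2 and 0 with quantile normalization, and 0 and 0 with the Y-linked term (with 10 or with the 6 unirradiated libraries), an Amy1 term or a mean FPKM of at least 5. Leaving out 1 library in turn gave 0 to 10 higher and 0 to 33 lower, the extremes without either 24 h library. Without ZT9 replicate 1, 9 genes were lower. The 15 lower calls of the 4 libraries alone included the 4 Y-linked genes and Egf. Clock calls, 0 as reported, were 1 with median-of-ratios scaling or without the trend (Arntl), 2 with a pseudocount of 0.1 (Arntl and Per2) and 0 to 5 leaving out 1 library. Same-numbered samples of ZT3 and ZT9 had a correlation of deviations of 0.0241. Over all group pairs it ran from -0.141 to 0.473 (ZT3 with ZT15), so the numbers were not taken as pairs, and the replicate block gave 0 higher and 1 lower call (Gm10320). The interferon median of 0.73 was 0.40 with the Y-linked term in the 6 unirradiated libraries, 1.12 with a mean FPKM of at least 5, and 0.57 to 1.05 leaving out 1 library. The tubule median of -6.59 was -2.77 with the Y-linked term, -3.40 with it in the 6 libraries and -5.78 with quantile normalization. The cause of these moves was not tested.

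Of 105 named genes, 72 kept their direction in every setting run. Reversals with the Y-linked term were Xist (-0.26), Kdm5d (0.0840), Eif2s3y (0.15), Amy1 (1.94), Prol1 (-4.59), P4hb (-0.0810), Nupr1 (0.15), H2-Ob (0.0600), Cidea (-0.48) and Por (-0.14). With that term in the 6 unirradiated libraries they were Ddx3y (0.0350), Kdm5d (0.0926), Eif2s3y (0.0695), Amy1 (5.73), P4hb (-0.24), Cd247 (0.46), Trbc2 (2.88), Trbc1 (1.10), Ighm (3.48), Cd79b (3.19), H2-Ob (4.00), Igkc (1.28), Igha (0.67), Jchain (0.24), Atp1b1 (-0.0261), Cidea (-0.0569), Mt2 (-0.11), Nkd2 (-0.14), Por (-0.23) and Scgb2b27 (-0.22). The log2 change of Prol1 with the Y-linked term in all 10 libraries had an SE of 4.20. Prol1 was listed at 0 in 24 h replicate 1, which holds Y-linked RNA, and at 50123 in 24 h replicate 2. With the term in the 6 unirradiated libraries Prol1 did not reverse. Quantile normalization reversed Nupr1 (0.12). Leaving out 1 of the 4 compared libraries reversed the direction of these genes, with log2 changes of -11.78 to 0.61 for A2ml1, -5.07 to 2.18 for Amy1, -0.0412 to 1.85 for Cdk1, -0.88 to 4.49 for Cidea, -0.61 to 0.35 for Csnk1e, -11.59 to 1.01 for Dcpp2, -9.47 to 0.57 for Dcpp3, -2.95 to 0.38 for H2-Ob, -2.41 to 0.52 for Ighm, -0.21 to 0.56 for Mcm6, -9.49 to 1.64 for Muc19, -1.44 to 1.16 for Nupr1, -0.0975 to 0.39 for Por, -0.18 to 0.27 for Rpl10, -4.23 to 0.00879 for Rpl34-ps1, -0.13 to 0.52 for Rps14 and -2.68 to 0.14 for Trbc2. With 1 library left in a group, that library is assumed to vary like the other groups. Depth is unknown, and 2 libraries a group limit the precision.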
